A study of Arabidopsis thaliana with 9 samples.

Results

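Class III peroxidases are the secreted haem peroxidases of plants, numbered PER1 to PER73 in *Arabidopsis thaliana*. The genes described here were those whose deposited gene name was PER followed by a number, leaving out 1 gene of that pattern, AT1G48130, which encodes a peroxiredoxin of another enzyme class. This gave 73 of the 33557 genes in the authors' deposited table. The name PER1 stood on both AT1G05240 and AT1G05250, and these are told apart here by identifier. In the reference annotation 71 of the 73 carried a plain peroxidase product name, and the coding sequences of 72 held at least 8 cysteines, the number that forms the disulphide bridges typical of this class.

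These enzymes pass through the secretory pathway into the cell wall and the vacuole. With hydrogen peroxide they oxidise phenolic groups, which joins monolignols into lignin and ties extensins and other wall polymers together, so that the wall becomes stiffer. In another reaction cycle they release hydroxyl radicals, which cut wall polysaccharides and loosen the wall. A seed germinates when the embryo axis elongates and the endosperm that surrounds it gives way, and both steps depend on wall properties. PER16, PER62, PER69 and PER71 have been studied in germinating *Arabidopsis* seeds, and so has PER4, which is named here after its values were seen.

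Whole seeds were imbibed on agarose and collected at 12 h, in 3 biological replicates for each of 3 genotypes, 9 libraries in all. The wild type (WT) was Col-0, and the mutants *nac1L* (KO1 in the table) and *nac25* (KO2) are loss-of-function lines of genes for NAC transcription factors. The labels used here do not name the mutant alleles. The authors' deposited table gives the log2 fold between each pair of genotypes with its p, its q (the adjusted p) and whether a test was made, and no value for a single library, so sequencing depth, levels and the spread between replicates were unknown and only the authors' Cuffdiff test carries the replicate error. A call means a q of at most 0.05 in that table. The 2 mutant comparisons share the WT libraries and are set side by side below. In the authors' deposited table the log2 fold of NAC25 was -3.97 in *nac25* and -2.66 in *nac1L*, and that of NAC1L, taken here as AT3G12977, was -4.61 in *nac1L* and -1.89 in *nac25*, all without a test for lack of reads.

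Most of the family was listed at 0 or had too few reads for a test in imbibed seeds. The table holds no levels, so listed at 0 was read from folds of 0 without a test and from infinite folds. Of the 73 genes, 33 (45.2%) were listed at 0 in all 3 genotypes in the authors' deposited table, against 30.5% of all genes. A further 16 (21.9%, against 7.96% of all genes) were listed at 0 in 1 or 2 genotypes, and 12 (16.4%, against 7.33%) were above 0 throughout but had too few reads for a test. The remaining 12 (16.4%, against 54.5% of all genes) had a test in at least 1 comparison: PER12, PER13, PER17, PER31, PER34, PER42, PER43, PER52, PER62, PER63, PER69 and PER71. All genes here are all entries of the table, also those that do not code for protein. Of 27443 nuclear protein-coding genes in the reference, 5177 were listed at 0 in all 3 genotypes and 17396 had a test. Genes listed at 0 throughout included PER53, PER3 (RCI3, which responds to cold) and PER50. The wall peroxidases PER9 and PER72, of which PER9 acts in the anther with PER40 and PER72 in lignin formation, were above 0 in *nac25* alone, as were PER27, PER47 and PER58. PER15, PER21 and PER33 were above 0 in *nac1L* alone, and PER19, PER26, PER59 and PER73 in WT alone. PER16, PER30 and PER55 were listed at 0 in *nac25* alone and PER37 in *nac1L* alone. No fold is given against a genotype listed at 0, and a gene at such low levels can be listed at 0 without being silent.

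**Figure D1:**
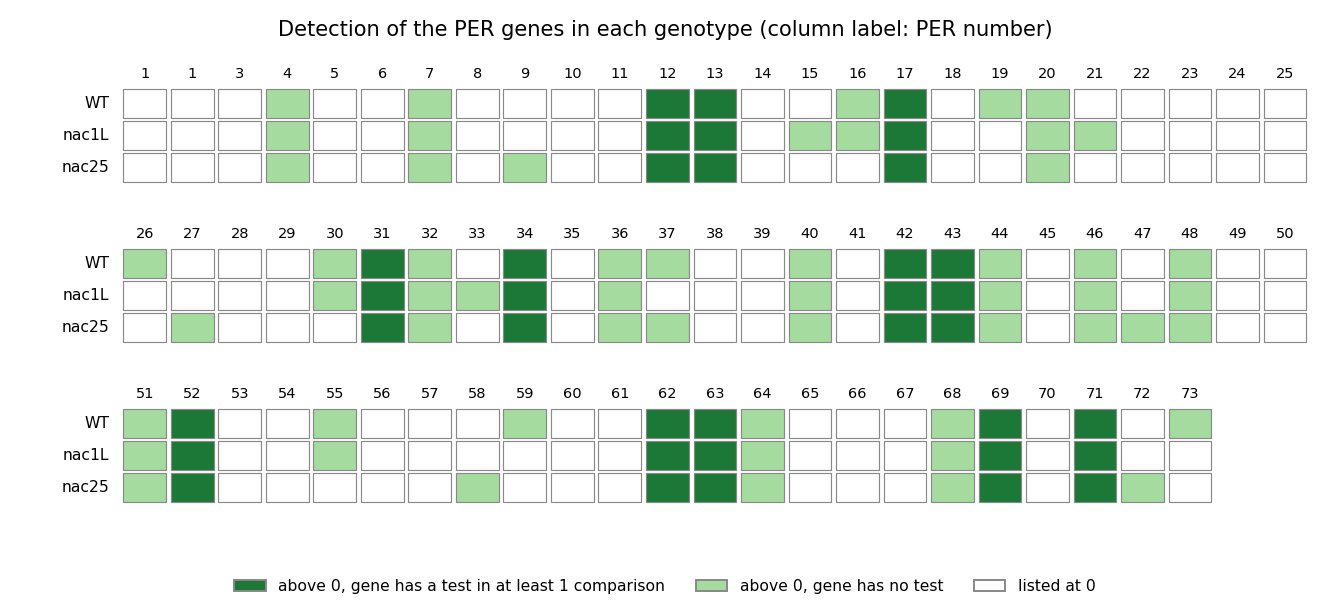
Each square is 1 gene (column, by its PER number; the name PER1 stands on 2 genes) in 1 genotype (row), as read from the deposited folds. White squares are listed at 0, light green squares are above 0 in a gene without a test, and dark green squares belong to the 12 genes with a test in at least 1 comparison; 33 columns are white throughout.

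The promoters of the genes called the same way in both mutants were examined for short sequence motifs. There were 4 such genes, PER17, PER62 and PER42 (lower) and PER13 (higher), and the 300 bases before the annotated gene start are shown for the 3 with the largest mean change. They are shown so that the motif matches can be read in place. Sequences are from the RefSeq copy of TAIR10.1, 5′ to 3′ on the gene's strand, with the build behind the deposited table not given in the sources used here. Capitals mark every match, on either strand, to the 7 motifs searched. For NAC factors these were the core CACG and the longer site CATGTG. The G-box CACGTG was searched as well and contains the NAC core. The gibberellin response element was written as TAACAAA. The L1 box of epidermal genes had the forms TAAATGCA and TAAATGTA. The RY element of seed maturation genes was CATGCA, and its last 5 letters also end the first L1 form.
PER17 (chr2:9512724-9513023, plus strand): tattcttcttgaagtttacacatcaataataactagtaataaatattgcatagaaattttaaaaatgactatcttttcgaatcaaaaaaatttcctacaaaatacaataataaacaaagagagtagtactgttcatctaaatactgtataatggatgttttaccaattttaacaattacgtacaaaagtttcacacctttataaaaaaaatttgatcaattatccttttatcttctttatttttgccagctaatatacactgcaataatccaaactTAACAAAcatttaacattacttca
PER62 (chr5:15849142-15849441, minus strand): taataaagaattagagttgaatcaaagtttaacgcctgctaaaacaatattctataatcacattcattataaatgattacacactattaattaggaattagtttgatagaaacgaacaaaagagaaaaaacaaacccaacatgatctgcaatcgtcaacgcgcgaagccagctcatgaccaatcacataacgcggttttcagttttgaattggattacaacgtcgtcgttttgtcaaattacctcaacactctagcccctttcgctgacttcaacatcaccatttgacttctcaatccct
PER42 (chr4:11648645-11648944, minus strand): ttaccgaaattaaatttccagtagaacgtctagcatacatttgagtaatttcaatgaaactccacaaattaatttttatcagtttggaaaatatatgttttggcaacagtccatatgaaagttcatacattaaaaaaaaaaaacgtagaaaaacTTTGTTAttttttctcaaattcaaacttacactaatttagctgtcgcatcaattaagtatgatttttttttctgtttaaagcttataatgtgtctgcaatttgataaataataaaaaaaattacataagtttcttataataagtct
PER17 and PER42 each held 1 gibberellin response element, PER42 on the reverse strand, and PER62 held none of the 7 motifs. The NAC core CACG was in none of these 3 windows. It was present in 5 of the 12 promoters of tested members (41.7%), 36 of 73 over the family (49.3%) and 50.5% of the 27443 promoters of all protein-coding genes. TAACAAA stood in 3 of the 12 tested members (25%), in 14 of the 73 (19.2%) and in 19.2% of all promoters. A match describes the letters of the window and no match says nothing about a factor.

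The RY element CATGCA was, of the 7 motifs, the one whose share in the family lay farthest from its share in all promoters. It stood in 24 of the 73 member promoters (32.9%) and in 10.3% of all promoters. Of the 12 members with a test 1 held it, PER43 (8.33%, against 8.99% of the 17396 protein-coding genes with a test). Of the 61 members without a test 23 held it (37.7%). Among the 33 members listed at 0 in all 3 genotypes 12 held it (36.4%), against 13.5% of the 5177 protein-coding genes so listed. Among the 51 members with no other member beside them 17 held it (33.3%). With 200 bases it was 27.4% of members against 6.69% of all promoters, and with 500 bases 38.4% against 17%. These shares were not tested. The windows around the element are shown for 5 of the members that held it, the tested PER43 and 4 with a published role, with CATGCA or its reverse complement TGCATG in capitals. PER36 acts in mucilage release from the seed coat and PER40 in the anther, and the PER40 window holds 2 matches.
PER3 (chr1:1529712-1529737, plus strand): tactaccaaaCATGCAaactcttcta
PER36 (chr3:18943102-18943127, plus strand): attatccaacCATGCAttcatcgtca
PER40 (chr4:9204908-9204933, plus strand): ttgaagtgcaCATGCAgtCATGCAgt
PER43 (chr4:13189362-13189387, plus strand): gacaattttaCATGCAaataaggtta
PER72 (chr5:26517618-26517643, minus strand): gtgttgctaaTGCATGgaacaaaaat
In PER3, PER36, PER43 and PER72 the element began 45, 23, 21 and 34 bases before the annotated gene start, and in PER40 the matches began 162 and 154 bases before it. The PER43 window lies inside the end of the annotated neighbour AT4G25970.

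In whole seeds fewer cells of a type and less RNA per cell cannot be told apart, and this holds for every fold below. In *nac1L* seeds, PER17, PER62 and PER42 were lower and PER52 and PER13 higher than in WT. PER17, linked to lignified tissue, was 8.93-fold lower in the authors' deposited table (log2 fold -3.16, q = 0.000463, the smallest q the table holds). PER62 was 1.81-fold lower in the authors' deposited table (log2 fold -0.85, q = 0.000463) and PER42 1.61-fold lower (-0.69, q = 0.000463). PER52, which takes part in lignin formation in the stem, was 1.87-fold higher in the authors' deposited table (log2 fold 0.90, q = 0.000463), and PER13 was also higher (0.59, q = 0.000463). Thus 3 of the 12 tested members were lower and 2 higher, where 18.9% and 9.62% of all 18233 tested genes were called lower and higher. At a change of at least 2-fold only PER17 was called, against 6.2% of all tested genes for lower and 0.861% for higher calls. The median log2 fold of the 12 was -0.21, and that of all tested genes -0.07.

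The other 7 tested members did not pass in *nac1L*. PER69 had a large fold that was close to the threshold in the authors' deposited table (log2 fold -2.36, q = 0.0513). With p-values adjusted over this comparison alone PER69 was called lower (q = 0.0481), where 19.2% of all tested genes were called lower. PER71, which strengthens the wall and limits cell expansion, had a log2 fold of 0.64 (q = 0.0966) in the authors' deposited table. PER31 (log2 fold -0.40, q = 0.0693), PER63 (-0.46, q = 0.154) and PER12 (0.29, q = 0.113) did not pass in the authors' deposited table. PER43 had a log2 fold of -0.03 (q = 0.985) in the authors' deposited table and overlaps AT4G25970 on the same strand and AT4G25990 on the opposite strand, so reads of these genes may be counted together. For PER34, a source of the apoplastic oxidative burst together with PER33, the authors' deposited table held a log2 fold of 0.36 (q = 0.629). The proteins of PER34 and PER33 are 92.9% identical and their coding sequences 90.7%. Reads from stretches that are the same in both genes may not be told apart.

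In *nac25* seeds, lower calls outnumbered higher ones and included the germination-related PER62 and PER71. PER17 was 12.6-fold lower in the authors' deposited table (log2 fold -3.66, q = 0.000463) and PER62 8.15-fold lower (-3.03, q = 0.000463). PER71 was 2.41-fold lower in the authors' deposited table (log2 fold -1.27, q = 0.00573) and PER52 2.35-fold lower (-1.23, q = 0.000463). Smaller reductions were called in the authors' deposited table for PER63 (log2 fold -0.93, q = 0.00437), PER42 (-0.76, q = 0.000463) and PER31 (-0.52, q = 0.0206). PER63 overlaps AT5G40153 on the opposite strand, and the strand setting of the count is not stated. PER13 was 1.31-fold higher in the authors' deposited table (log2 fold 0.39, q = 0.0158) and PER12 did not pass (0.36, q = 0.0548). PER43 had a log2 fold of -0.29 (q = 0.931) in the authors' deposited table. PER69 had the lowest fold of the tested members and did not pass in the authors' deposited table (log2 fold -4.05, q = 0.418).

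Of the 11 members tested in *nac25*, 7 were thus lower and 1 higher, where 32.8% and 6.25% of all 18155 tested genes were called lower and higher. At a change of at least 2-fold 4 members were lower, against 11.1% of all tested genes, and 0 higher by the authors' Cuffdiff test, against 0.683% (2 were higher at an unadjusted p below 0.05 with no minimum fold). PER13 did not pass a q of 0.01, which 4.13% of all tested genes passed as higher. With adjustment over this comparison alone PER12 joined PER13 as higher, where 6.9% of all tested genes were called higher. The median log2 fold of the members was -0.93, and that of all tested genes -0.27. Because most genes lay below 0 in this mutant, the folds were also centred on the median of all tested genes. The q-values after centring were recomputed from the deposited folds and p-values, without replicate values. The calls of PER31 and PER63 were then lost (q = 0.372 and 0.0646), PER12 was called higher (q = 0.000755), and 5 members were lower and 2 higher where 14.8% and 15.8% of all genes were. In *nac1L* centring left the same 3 lower and 2 higher members, where 15.2% and 12.4% of all genes were called. Shares of all genes after centring may be too low, because genes at the smallest deposited p get an error that may be too large.

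**Figure D2:**
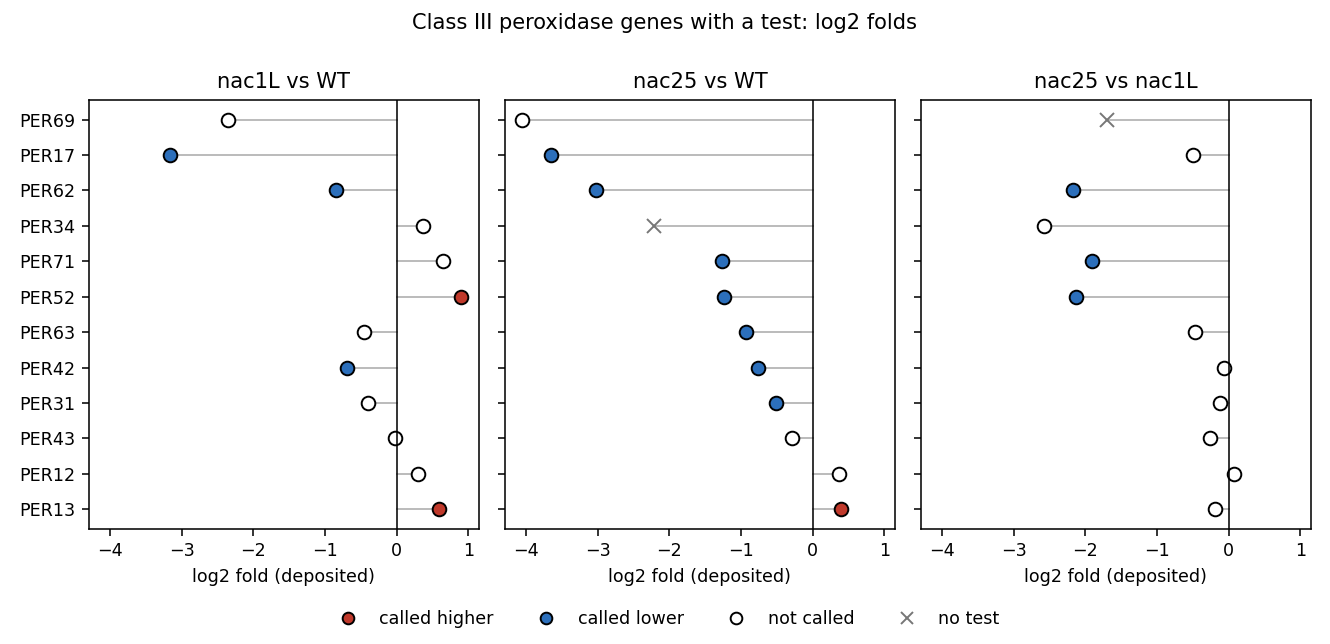
Deposited log2 folds (x axis) of the 12 genes with a test in at least 1 comparison, in 1 panel per comparison, ordered by their fold in *nac25* against WT. Red and blue circles were called higher and lower at a deposited q at or below 0.05, open circles were not called and crosses had no test; PER52 lies above 0 in *nac1L* at 0.90 and below 0 in *nac25* at -1.23.

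The mutants differed from each other in 3 members, all lower in *nac25*. In the authors' deposited table PER62 was 4.51-fold lower in *nac25* than in *nac1L* (log2 fold -2.17), PER52 4.39-fold lower (-2.13) and PER71 3.76-fold lower (-1.91), each at the smallest q of 0.000463. For PER62 both mutants were below WT, and the reduction was the larger one in *nac25*. PER52 lay on opposite sides of WT in the mutants, and both sides were called. PER71 was called below WT in *nac25* alone, and the direct test separated the mutants. Of 11 members tested 3 were lower and 0 higher by the authors' Cuffdiff test (0 higher at an unadjusted p below 0.05), where 11.7% and 0.609% of all 17743 tested genes were called. All 3 differences exceeded 2-fold, as did 0.941% of all tested genes among lower calls and 0.0733% among higher calls. All 3 calls were kept after centring, where 1.56% of all tested genes were lower and 2.72% higher, shares that may be too low as said above. PER34 had a log2 fold of -2.58 that did not pass (q = 0.134) in the authors' deposited table, and PER69 one of -1.69 without a test. The remaining 7 tested members lay between -0.50 (PER17) and 0.07 (PER12) in the authors' deposited table. Their median over all 11 was -0.47, against -0.20 over all tested genes.

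**Figure D3:**
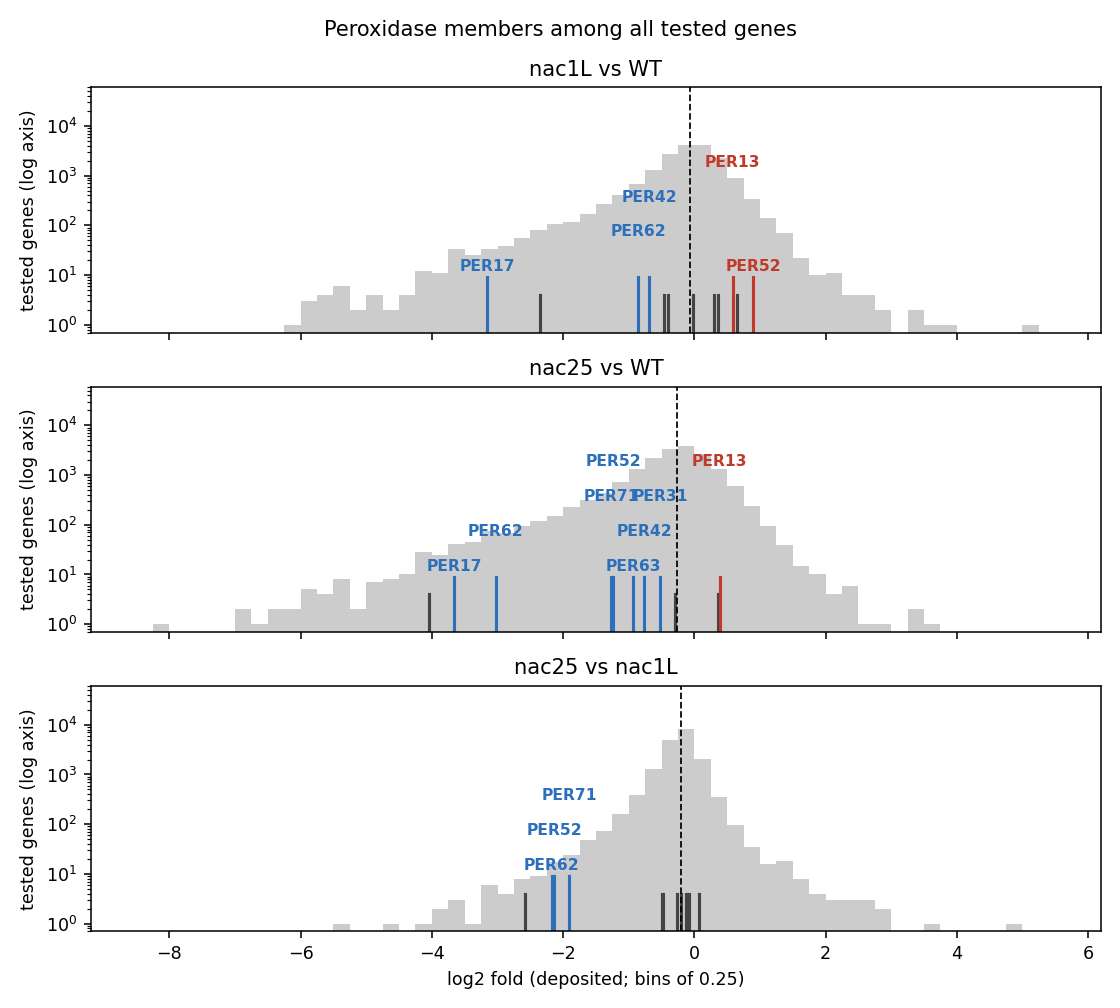
Grey bars count all tested genes by deposited log2 fold (log axis), and short lines mark the class III peroxidase genes, blue and red where called lower and higher and dark grey where not; dashed lines are the medians of all tested genes. In *nac25* against *nac1L* the 3 called members, at -1.91 to -2.17, lie in the thin lower tail.

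Protein identity among the tested members ran from 32.8% to 80.1% over 66 pairs. PER62 and PER71, the pair with the second highest protein identity (76.7%), were both called lower in *nac25* than in *nac1L*, as were 11.7% of all tested genes. In *nac1L* against WT they lay on opposite sides in the authors' deposited table. There PER62 was called lower (log2 fold -0.85) and PER71 was not called (0.64, q = 0.0966). PER69 was 58.4% and 58.2% identical to PER62 and PER71. The nearest tested relative of PER52, the other member called lower in *nac25* than in *nac1L*, was PER34 (48.0% identical). PER31 and PER63, the most identical tested pair (80.1%), were both called below WT in *nac25*, where 32.8% of all tested genes were called lower. Both of these calls were lost after centring (q = 0.372 and 0.0646). PER31 and PER63 did not pass between the mutants (log2 folds -0.12 and -0.47, q = 0.631 and 0.158, in the authors' deposited table). PER13 and PER43 (58.8%) were the member called higher in both mutants and one not called in either. These are descriptions of 12 genes and were not tested.

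**Figure D4:**
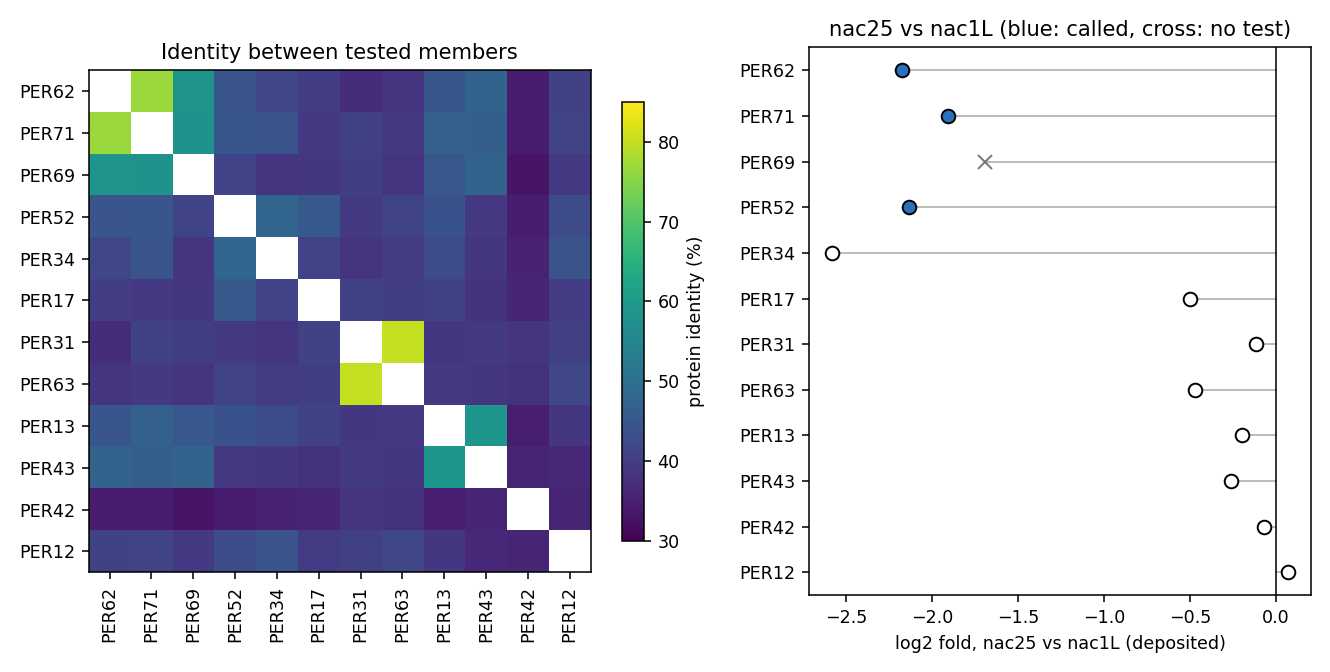
The left panel gives the protein identity (%) of each pair of the 12 tested members from translated reference coding sequences, and the right panel the deposited log2 fold of *nac25* against *nac1L* for the same genes, blue where called and crossed where there was no test. PER62 and PER71 share 76.7% of aligned residues and lie at -2.17 and -1.91.

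The encoded proteins of the tested members were 316 to 358 residues long, against 310 to 404 over the family. Their theoretical isoelectric points ran from 4.95 (PER13) to 9.47 (PER69) with a median of 8.46, and over the family from 4.47 to 9.95 with a median of 7.96. PER13, PER17 and PER43 were the 3 tested members with a value below 7, and 30 of all 73 were below 7. An isoelectric point describes the unmodified translated chain, signal peptide included.

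In the TAIR10.1 annotation 22 of the 73 members lie next to another member among protein-coding genes, in 10 groups. PER69, PER70 and PER71 form 1 group, in which PER69 and PER71 had tests and PER70 was listed at 0 in all genotypes. PER70 is 66.6% and 60.6% identical to its neighbours. In the remaining 9 groups no member had a test. AT1G05240 and AT1G05250 have identical coding sequences (100% identical), so reads from coding sequence cannot be assigned to one of them, and both were listed at 0. PER37 and PER38 (92.8% identical), PER50 and PER51 (89.4%), PER14 and PER15 (88.7%), PER4 and PER5 (74.0%) and PER67 and PER68 (71.8%) each had 1 neighbour above 0 in at least 1 genotype. Of PER58 and PER59 (48.8%), PER58 was above 0 in *nac25* alone and PER59 in WT alone.

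Among members without a test, folds are given as listed. PER16, studied in the endosperm of germinating seeds, had a log2 fold of -0.38 in *nac1L* in the authors' deposited table and was listed at 0 in *nac25*. PER4 lay at a log2 fold of 1.44 in *nac1L* and -1.92 in *nac25* in the authors' deposited table. PER36 had log2 folds of -1.46 in *nac1L* and -0.39 in *nac25* in the authors' deposited table, and PER40, in the same order, of -0.37 and -0.20. PER64, which helps lignify the Casparian strip of the root, had log2 folds of -0.98 (*nac1L*) and -0.89 (*nac25*) in the authors' deposited table. For PER34 the log2 fold against WT in *nac25* was -2.22 in the authors' deposited table, with no test. None of these values carries a test.

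Other genes of wall oxidation were taken from lists of their pathways. Of 17 tested genes of lignin monomer synthesis, 3 were higher and 1 lower in *nac1L*, and of 16 tested in *nac25* 3 were higher and 6 lower. The shares of all tested genes were 9.62% higher and 18.9% lower in *nac1L*, and 6.25% higher and 32.8% lower in *nac25*, and they apply to each list below. The lignin list's median log2 folds were 0.06 and -0.21, and -0.24 between the mutants, beside -0.07, -0.27 and -0.20 for all tested genes. 4CL1 (log2 fold 0.90 in *nac1L* and 0.60 in *nac25*), HCT (0.53 and 0.54) and C3H1 (0.56 and 0.45) were called higher in both mutants in the authors' deposited table. PAL1 (log2 fold -0.82), PAL2 (-0.44), CCOAOMT1 (-0.71), CAD4 (-0.35) and CAD5 (-0.97) were called lower in *nac25* alone in the authors' deposited table. Between the mutants CAD5 (log2 fold -1.33), CCR2 (-1.58) and CCOAOMT1 (-0.68) were called lower in *nac25* in the authors' deposited table, 3 of 17 tested. Of all tested genes 11.7% were called lower and 0.609% higher between the mutants, which also applies to each list below.

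Of 17 laccases, which also oxidise monolignols but with oxygen, only LAC8 and LAC13 had a test. LAC8 was called lower in both mutants in the authors' deposited table (log2 fold -2.75 and -3.65) and LAC13 in *nac1L* (-0.76). On the extensin list only leucine-rich repeat extensins had a test, and EXT3, an extensin proper, had none. Of these 4 tested genes 3 were lower in *nac1L* and 4 in *nac25*, among them LRX2 (log2 fold -1.57 and -1.98), LRX4 (-1.16 and -1.63) and LRX3 (-0.82 and -0.97) in the authors' deposited table, and LRX5 in *nac25* (-0.65). Of the NADPH oxidases, which supply superoxide to the wall, RBOHD was called lower in both mutants in the authors' deposited table (log2 fold -0.43 and -0.70) and none of the other 3 tested passed. Of 7 superoxide dismutases, which make hydrogen peroxide from superoxide, CSD1 (log2 fold 0.51) and CSD2 (0.45) were called higher and FSD1 (-1.18) lower in *nac1L* in the authors' deposited table. FSD1 (-1.01) and FSD3 (-0.32) were called lower in *nac25* in the authors' deposited table, and CSD1 was lower in *nac25* than in *nac1L* (-0.50, q = 0.0152). Of the Casparian strip genes 3 had a test in *nac1L* and 2 in *nac25*, and by the authors' Cuffdiff test 0 were called (0 at an unadjusted p below 0.05). Between the mutants 0 of 3 were called by that test, with 1 lower at an unadjusted p below 0.05. KUA1, a repressor of peroxidase genes in the leaf that acts on PER71, did not pass in the authors' deposited table (log2 fold -0.11, q = 0.645, and -0.18 in *nac25*), and UPB1, a repressor of root peroxidase genes, had no test.

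Several markers of seed tissues were lower in both mutants. Of 4 endosperm markers 3 had a test (EPR1 had too many reads for one), and EXPA2, MAN7 and CYP707A2 were called lower in both mutants, with log2 folds from -4.21 to -1.07 in *nac1L* and from -4.88 to -1.07 in *nac25* in the authors' deposited table. Of 4 embryo markers SHR, LTP1 and PDF1 were called lower in both mutants and ATML1 was not, with log2 folds from -2.78 to -0.11 in *nac1L* and from -3.25 to -0.11 in *nac25* in the authors' deposited table. None of the 4 seed coat markers had a test, and BAN was listed at 0 in all 3 genotypes. Between the mutants EXPA2 (log2 fold -0.67) and LTP1 (-1.30) were called lower in *nac25* and PDF1 (0.37) higher in the authors' deposited table. The part of these markers in the peroxidase folds was not tested.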

How the data were processed

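Stranded libraries were prepared from whole-seed RNA, per the labels. The authors used Cuffdiff 2.2.1.3, TopHat2 2.1.0 and FastQC 0.11.5, per the submitters' processing notes. What build, annotation, normalization and strand setting they used is not given in the sources used here. Values are the authors' deposited log2 folds, p-values and adjusted q-values, per the file headers. The smallest deposited p-value is 5e-05. Adjusting all 54131 deposited p-values together by Benjamini-Hochberg gave the q-values within 5.27e-07. Folds were read as second genotype over first, and cells with a spreadsheet error as minus infinity. For all 24 members with finite folds other than 0 the 3 comparisons added up within 0.001. A fold of 0 in all comparisons without a test was read as listed at 0. No further test on replicate values was made. The q-values after centring and after adjustment within a comparison were recomputed from the deposited folds and p-values, and are not the authors' own. Alternatives were a stricter q, a minimum fold, adjustment within a comparison, centring, and membership by product name.

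Centring subtracted the median of tested genes and recomputed p from the standard error implied by the deposited fold and p. The smallest p only bounds that error, so centred q-values of such genes are upper limits and the shares of all genes called after centring may be too low. The adjustment was checked on a small example with a known answer, and the centring on simulated data. The simulation had few changed genes, all with large changes equally likely up or down, a uniform shift and no smallest p. Deposited calls in *nac25* were mostly lower and the deposited p has a smallest value. The simulation therefore cannot show how well centring works on these data. Coding sequences, neighbours and promoters came from the TAIR10.1 genome, and proteins were translated and aligned with BLOSUM62. Python 3.11.15, numpy 2.4.6, pandas 2.3.3, scipy 1.17.1, matplotlib 3.10.9 and Biopython 1.88 were used.

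Members and lists were chosen with earlier results of these data known. Named are all called members, members with a published seed or wall role, members adjacent on a chromosome, and called genes of 11 lists. PER4, which had no test, and the tested members outside that rule were named after their values were seen. The values of 1 listed gene are not reported here. Proteins are not printed, and promoters were read from the genome itself.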

Additional observations from a re-analysis of the deposited data

Results flagged for a closer look

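For 3 genes the effects of the mutants differed by the direct comparison of *nac25* with *nac1L* in the authors' deposited table. PER62 had a log2 fold of -2.17, PER52 of -2.13 and PER71 of -1.91, each with the lowest q of the table. PER52 was the only one of them with calls in opposite directions against WT. The cause was not tested.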

How the results depend on the processing

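With a minimum change of 2-fold the counts in *nac1L* fell to 0 higher and 1 lower and in *nac25* to 0 higher and 4 lower. The single higher call in *nac25* became 0 at a q of 0.01 (where PER31 also lost its call), 2 with adjustment over the comparison alone and 2 after centring. That adjustment also raised the lower calls in *nac1L* from 3 to 4, by PER69. Medians of members moved to -0.15, -0.67 and -0.27 after centring (*nac1L* against WT, *nac25* against WT, *nac25* against *nac1L*), and to -0.37, -0.69 and -0.49 over the 27, 25 and 24 members with any finite fold. After centring, uncalled folds changed sign for PER43 in *nac1L* (0.0390) and, between the mutants, for PER13 (0.0046), PER31 (0.0806) and PER42 (0.127). Choosing members by product name left every count as it was. That choice kept 71 of the 73 members and added 2 genes, 0 of them with a test, so the counts had little room to change. The window lengths for the RY element were added after the data were seen. No paired analysis was possible because the table holds no value per library, and for the same reason no replicate could be left out. Depth is unknown, so that 61 of 73 genes without a test cannot be called unchanged.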
